A study of Mus musculus with 15 samples.

Results

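The midbrain dopamine neuron depends throughout life on a small group of transcription factors, and their transcripts were followed here in nuclei sorted from the mouse ventral tegmental area. The group has 8 members: En1, Lmx1a, Lmx1b, Foxa1, Foxa2, Nr4a2, Pitx3 and Otx2. They were taken from the deposited count table by gene symbol, not by any measured value, and all 8 were found among its 35976 genes. Earlier results of these data were known when the members were chosen. Male heterozygous DAT-Cre mice, aged 8 to 12 weeks, carry Cre recombinase in the Slc6a3 (dopamine transporter) gene. Every mouse, controls included, had received the virus AAV5-DIO-KASH-HA in the ventral tegmental area, which puts a tagged protein on the nuclear envelope of Cre-expressing cells; 14 days were allowed for expression. Nuclei were sorted by the HA tag and DAPI, and each library pooled the tissue of 2 mice. All groups underwent 7 days of operant food training, and HA-positive (dopaminergic) nuclei of the food-trained group were collected after it (n = 4 libraries). A second group (n = 3) went on from food training to cocaine and was taken at the end of maintenance, with 5 days of self-administration at 0.3 mg/kg per infusion and 10 days at 1.0 mg/kg per infusion in daily sessions of 1 hour. A further group (n = 4), named craving in the labels, went through the same schedule and then 21 days of forced abstinence in the home cage. HA-negative (non-dopaminergic) nuclei came from food-trained mice (n = 4). Library totals ran from 25813697 to 59046618 counts. Because the tag needs Cre made from the Slc6a3 gene, the sort itself favours nuclei with high Slc6a3, and the HA-negative population may hold dopaminergic nuclei that the virus missed.

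The members act at successive steps of the dopaminergic program. Foxa1 and Foxa2 are forkhead factors that open chromatin in the floor plate, and Lmx1a, Lmx1b, Otx2 and En1 are homeodomain factors that set progenitor and regional identity. Nr4a2, an orphan nuclear receptor, and Pitx3, a bicoid-class homeodomain factor, switch on the genes for dopamine synthesis, packaging and reuptake after the last division, and several members are still needed in the adult for survival. In the adult midbrain Otx2 is known for its restriction to part of the ventral tegmental dopamine neurons.

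Positions are RefSeq's in the GRCm38.p6 build. En1 is at chr1:120602487-120607991 and Lmx1a at chr1:167688230-167848741, both on the plus strand. The other members are on the minus strand: Lmx1b at chr2:33560965-33641208, Nr4a2 at chr2:57106830-57124003, Foxa2 at chr2:148042877-148046969, Foxa1 at chr12:57540628-57548029, Otx2 at chr14:48656781-48667644 and Pitx3 at chr19:46135281-46148325. An exon of Pitx3 overlaps one of Elovl3, a fatty acid elongase gene, and an exon of Otx2 overlaps the noncoding genes Otx2os1 and Gm49154 in GENCODE release 21. The use of strand in counting is not given in the sources used here, so reads in those overlaps are uncertain.

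RefSeq lists 13 promoters for the 8 genes, and the 250 bases before each start were searched on both strands for the core letters that the members' own families are known to bind. The letters were AAAGGTCA for Nr4a2, TAATCC for the bicoid class of Otx2 and Pitx3, TGTTTAC for the forkhead pair and TAATTA for En1, Lmx1a and Lmx1b; TAATCC and TAATTA share their first letters. Over 32851 RefSeq promoters of this length, 1.34% held the Nr4a2 letters, 6.25% the bicoid letters, 3.17% the forkhead letters and 4.84% the homeodomain letters. Of the members' 13 promoters, 0 held the Nr4a2 letters, 1 (Otx2) the bicoid letters, 1 (Foxa1) the forkhead letters and 2 (both of Otx2) the homeodomain letters. The Otx2 stretch with the bicoid match, at chr14:48665110-48665359, also held homeodomain letters. All 250 of its bases are Otx2 exon in GENCODE, so it is not shown, and the Otx2 stretch below holds homeodomain letters only. The sequences below are shown because Foxa1 and Otx2 hold a match to their own or a fellow member's family, while Pitx3 is the member whose counts differed most between stages. Capitals mark the match, which starts 141 bases before the start site in both genes, and Pitx3 has none. They lie at chr12:57546122-57546361, chr14:48667645-48667894 and chr19:46148327-46148575, all read 5′ to 3′ on the minus strand, and any bases that GENCODE annotates as exon were left off.
Foxa1: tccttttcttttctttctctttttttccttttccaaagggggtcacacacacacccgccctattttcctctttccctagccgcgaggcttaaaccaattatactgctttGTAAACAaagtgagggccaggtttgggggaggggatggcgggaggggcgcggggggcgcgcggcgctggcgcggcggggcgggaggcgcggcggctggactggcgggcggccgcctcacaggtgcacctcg
Otx2: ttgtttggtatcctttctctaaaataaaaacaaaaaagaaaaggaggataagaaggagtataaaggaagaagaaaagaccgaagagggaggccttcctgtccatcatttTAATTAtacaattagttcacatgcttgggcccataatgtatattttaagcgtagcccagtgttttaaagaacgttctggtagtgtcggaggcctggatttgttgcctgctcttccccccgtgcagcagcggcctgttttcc
Pitx3: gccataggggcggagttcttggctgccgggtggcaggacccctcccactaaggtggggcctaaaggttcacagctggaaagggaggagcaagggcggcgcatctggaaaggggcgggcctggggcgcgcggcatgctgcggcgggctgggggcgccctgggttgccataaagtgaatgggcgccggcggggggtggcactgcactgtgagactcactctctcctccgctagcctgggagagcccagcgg
The Otx2 stretch had a GC content of 42.0%, the Foxa1 stretch 62.5% and the Pitx3 stretch 69.1%. The GC content of the transcripts differed as well. The Pitx3 transcript, at 68.26% GC, was at percentile 99.71 of all genes matched to a GENCODE transcript, whereas Nr4a2, at 47.87%, was at percentile 47.32. The other members ran from 46.84% in Otx2 to 57.87% in Lmx1b.

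The sort separated the populations by their defining transcripts. Slc6a3 was at 3009.7 ± 1031 CPM (SD, n = 4) in food-trained dopaminergic nuclei and 91.5 ± 18.9 CPM (n = 4) in the non-dopaminergic nuclei. CPM here is the count relative to library size, scaled with TMM (trimmed mean of M-values) factors over all 15 libraries. The sum of 7 dopamine neuron markers ran from 5643 to 12272 CPM over the 11 dopaminergic libraries and from 335 to 522 CPM in the non-dopaminergic ones. The sum of 9 oligodendrocyte markers was 1720.4 to 2792 CPM in food-trained dopaminergic nuclei, 1114 to 1679.9 CPM at maintenance, 1164 to 2019.8 CPM at abstinence and 9112 to 22174 CPM in non-dopaminergic nuclei, so neither population was free of the other's markers. The part of these markers in the members' levels was not tested.

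Food-trained dopaminergic and non-dopaminergic nuclei were compared to ask how far each factor is confined to the sorted neurons. En1, Pitx3, Foxa2 and Nr4a2 were higher in the dopaminergic nuclei and passed the test, by 19.2-fold, 18.9-fold, 10.4-fold and 6.1-fold. That is 4 of 8 members higher and 0 lower by edgeR's quasi-likelihood test at a Benjamini-Hochberg adjusted p under 0.05, against 3.63% of the 19786 genes tested that were called higher and 9.17% called lower (12.8% in either direction, or 775 genes in place of 2534 with the replicate block). CPM ranges that did not overlap, dopaminergic higher, were found for the same 4 members, beside 6.87% of genes (19.1% with dopaminergic lower). With the replicate block 3 of 8 members passed higher, and Foxa2 did not. All 8 members had a positive estimate, with a median log2 fold change of 2.89 beside -0.21 over all genes tested. In bulk RNA of sorted nuclei, fewer nuclei expressing a gene and less RNA per nucleus cannot be told apart.

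**Figure D1:**
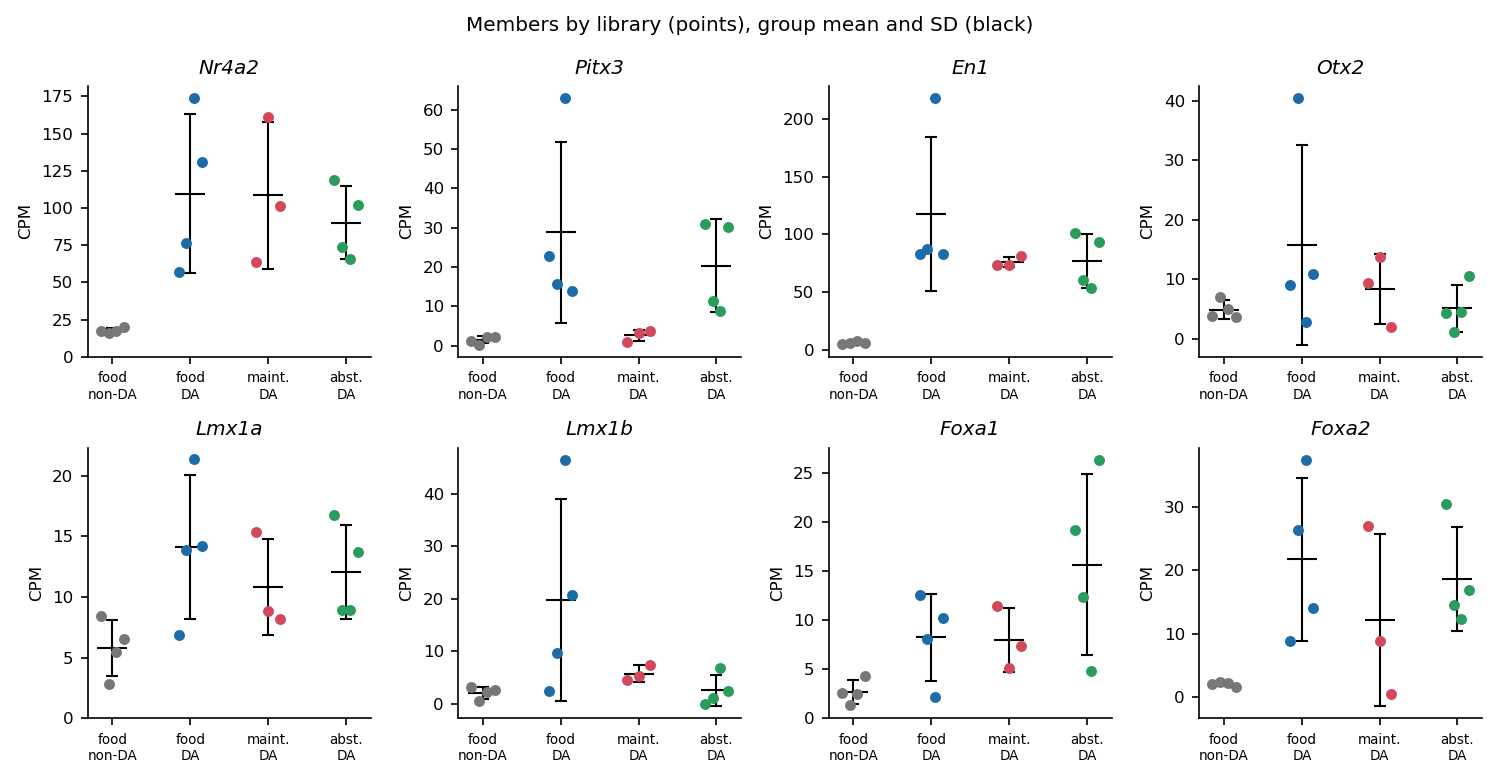
CPM of each member in each library (points), with group mean and SD in black, for food-trained non-dopaminergic and for food-trained, maintenance and abstinence dopaminergic nuclei; each panel has its own axis. The dopaminergic points of En1 and Nr4a2 all lie above every non-dopaminergic point, and the 3 maintenance points of Pitx3 lie near the non-dopaminergic ones.

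Nr4a2, the nuclear receptor that starts Th and Slc6a3 transcription, was at 56.7, 76.4, 174 and 131 CPM in food-trained dopaminergic replicates 1 to 4. In the non-dopaminergic nuclei it was at 17.6, 15.7, 17.3 and 19.9 CPM. The ranges did not overlap, and the non-dopaminergic libraries lay within a narrow band while the dopaminergic ones spanned 3.07-fold. The log2 fold change was 2.61 (SE 0.36, edgeR adjusted p = 0.00632). Its mean in non-dopaminergic nuclei, 17.7 ± 1.73 CPM (SD, n = 4), was 16.1% of the dopaminergic mean.

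Pitx3, which acts with Nr4a2 on those genes and whose loss removes substantia nigra neurons, was at 22.8, 15.6, 62.9 and 13.9 CPM in the dopaminergic libraries. The non-dopaminergic libraries had 1.26, 0.269, 2.18 and 2.26 CPM, the lowest resting on 13 counts. All dopaminergic libraries were above all non-dopaminergic ones, with replicate 3 far above its group. The log2 fold change was 4.24 (SE 0.83, edgeR adjusted p = 0.00865), and it was 3.55 without food-trained dopaminergic replicate 3 (edgeR adjusted p = 0.0143).

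En1, the homeodomain factor of the midbrain and hindbrain border that adult dopamine neurons need to survive, was at 83.2, 87.2, 218 and 82.7 CPM. The non-dopaminergic libraries had 4.96, 5.53, 8.02 and 5.55 CPM. The groups were far apart, and in both of them replicate 3 was the highest. En1 had the highest log2 estimate of the 8 members, 4.26 (SE 0.41, edgeR adjusted p = 0.00158), ahead of Pitx3 by far less than the SE of either.

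Of the forkhead pair, Foxa2 was at 8.80, 26.4, 37.4 and 14.1 CPM in dopaminergic and at 1.99, 2.34, 2.24 and 1.63 CPM in non-dopaminergic nuclei. The ranges did not overlap. Its log2 fold change was 3.37 (SE 0.59, edgeR adjusted p = 0.0067); with the replicate number as a block, which pairs the sorted fractions, it was 3.18 and no longer passed (edgeR adjusted p = 0.0595). Foxa1, its close relative, was at 12.6, 8.13, 2.20 and 10.2 CPM against 2.59, 1.41, 2.49 and 4.34 CPM. Here the groups overlapped, because dopaminergic replicate 3, the highest library for Foxa2, was the lowest for Foxa1. Foxa1 differed by 1.59 on the log2 scale (SE 0.76) and did not pass (edgeR adjusted p = 0.245).

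The LIM-homeodomain factors Lmx1a and Lmx1b, which specify dopaminergic progenitors and later support mitochondrial function, also did not pass. Lmx1b was at 2.46, 9.64, 46.5 and 20.7 CPM in dopaminergic and at 3.22, 0.58, 2.20 and 2.67 CPM in non-dopaminergic nuclei, an 18.9-fold spread within the dopaminergic group. Only dopaminergic replicate 1 fell inside the non-dopaminergic range. The log2 fold change was 3.17 (SE 0.95, edgeR adjusted p = 0.0613), and without that library it was 3.54 and passed (edgeR adjusted p = 0.0179). Lmx1b passed in 4 of 17 alternatives: that one, DESeq2's test (adjusted p = 0.00226), a filter of 10 counts in every library (edgeR adjusted p = 0.0236) and a GC offset (edgeR adjusted p = 0.0445). Among those in which it did not pass, it was 2.34 without dopaminergic replicate 3 (edgeR adjusted p = 0.104), 1.90 with limma-voom (adjusted p = 0.105) and 2.93 with the replicate block (edgeR adjusted p = 0.183).

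Lmx1a was at 6.86, 13.9, 21.4 and 14.2 CPM against 8.41, 2.84, 5.48 and 6.51 CPM, overlapping in 1 library of each group. Its log2 fold change was 1.25 (SE 0.57, edgeR adjusted p = 0.22), the lowest of the 8. Otx2 was at 9.04, 40.4, 2.90 and 10.9 CPM in dopaminergic and at 3.77, 7.08, 5.03 and 3.61 CPM in non-dopaminergic nuclei. The dopaminergic libraries of Otx2 spread 13.9-fold, from below to far above the other group. Its log2 fold change was 1.67 (SE 0.79, edgeR adjusted p = 0.238), and 0.62 without dopaminergic replicate 2 (edgeR adjusted p = 0.594). The overlapping noncoding gene Otx2os1 was low throughout, with a highest value of 2.72 CPM in those groups.

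Each member was also expressed as a log2 ratio to Slc6a3 in its own library, a measure chosen after the values were seen and given with no test, since the sort rests on Slc6a3 and its fold was already the larger. The ratio in dopaminergic minus that in non-dopaminergic nuclei was -3.86 for Otx2, -3.73 for Lmx1a, -3.54 for Foxa1, -2.50 for Nr4a2, -2.26 for Lmx1b, -1.81 for Foxa2, -0.83 for En1 and -0.65 for Pitx3. The values nearest 0 were those of En1 and Pitx3, whose ratios varied among dopaminergic libraries by 0.99 and 1.35 log2 units (SD, n = 4).

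**Figure D2:**
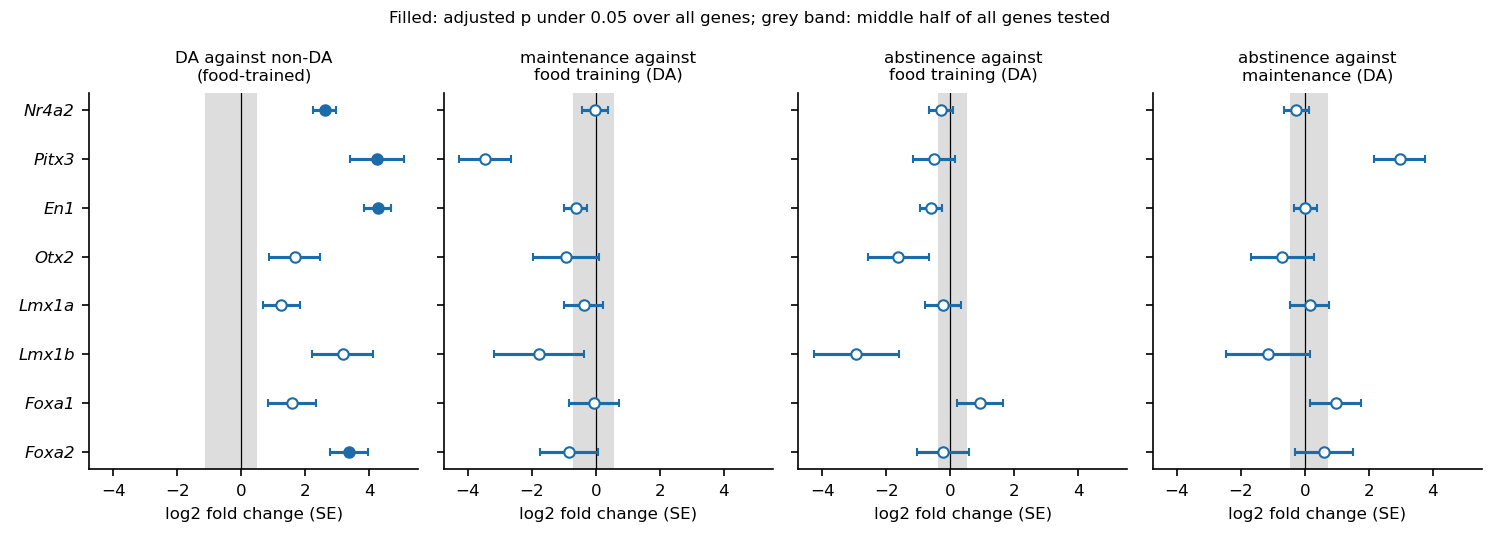
Log2 fold change of each member (point) with its SE (bar) in the 4 comparisons, filled where the adjusted p over all genes was under 0.05; the grey band holds the middle of all genes tested, from the first to the third quartile. The filled points are Nr4a2, Pitx3, En1 and Foxa2 in the comparison of populations. At maintenance against food training Pitx3 has the lowest estimate, with a bar that overlaps that of Lmx1b.

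The order of levels was read per kilobase of transcript, as mean CPM per kb. In food-trained dopaminergic nuclei En1 came first at 44.9 ± 25.5 (SD, n = 4), then Nr4a2 at 30.7 ± 15.0, Pitx3 at 20.9 ± 16.7, Foxa2 at 10.2 ± 6.02, Otx2 at 6.11 ± 6.47, Lmx1a at 4.21 ± 1.77, Lmx1b at 4.14 ± 4.03 and Foxa1 at 2.59 ± 1.39. No neighbours in that order differed beyond their spread: every pair of mean ± SD intervals overlapped. At maintenance Nr4a2 (30.4 ± 13.8, n = 3) and En1 (29.0 ± 1.61) led, a gap beyond the spread set them apart from Foxa2 (5.68 ± 6.35), and Pitx3 stood in the seventh place at 1.88 ± 1.06. At abstinence the order began as in food-trained mice, with En1 at 29.4 ± 9.01 (n = 4), Nr4a2 at 25.3 ± 7.00, Pitx3 at 14.7 ± 8.57 and Foxa2 at 8.71 ± 3.86. Lmx1b came last there at 0.54 ± 0.62.

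In the non-dopaminergic nuclei Nr4a2 led at 4.95 ± 0.485 CPM per kb (n = 4), beyond the spread of En1 at 2.29 ± 0.52, and Lmx1b was again last at 0.452 ± 0.237. Summed over the 8 members the level per kb was 58.2 to 213 in the dopaminergic libraries and 12 to 15.4 in the non-dopaminergic ones. En1 and Nr4a2 together made up 53.2% to 85.5% of the summed level in dopaminergic libraries and 48.4% to 54.5% in the others. The ratio of Foxa2 to Foxa1 per kb ranged from 0.109 in a maintenance library to 25.5 in a food-trained one, so which of the forkhead pair was higher depended on the library.

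**Figure D3:**
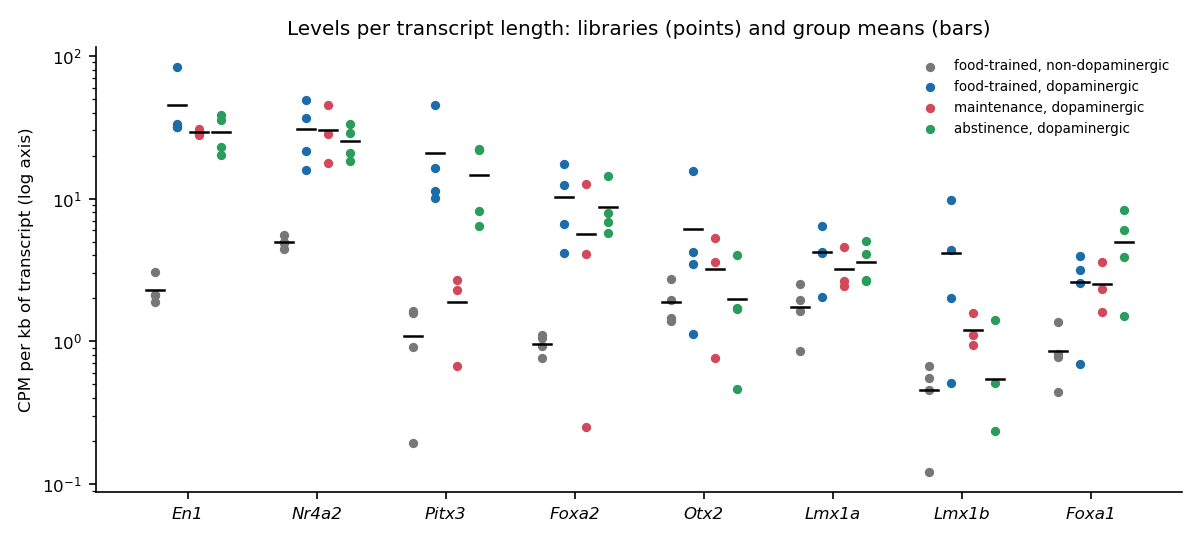
CPM per kilobase of transcript for each member in every library (points) with group means (bars), on a log axis, ordered by the mean in food-trained dopaminergic nuclei; 1 abstinence library of Lmx1b at 0 counts is not drawn but enters its mean. En1 and Nr4a2 lie highest, and the maintenance points of Pitx3 lie below its other dopaminergic points.

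Food-trained dopaminergic replicate 3 stood apart from the other libraries. It had the lowest total (25813697 counts) and, of the 11 dopaminergic libraries, the highest CPM for 6 of 8 members (En1, Lmx1a, Lmx1b, Foxa2, Nr4a2 and Pitx3) and the lowest for Foxa1. Without it the same 4 members still passed against non-dopaminergic nuclei, with log2 fold changes of 3.81 for En1, 3.55 for Pitx3, 3.00 for Foxa2 and 2.32 for Nr4a2 by edgeR.

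Dopaminergic nuclei after cocaine maintenance were then set against those after food training to ask whether the identity factors change with cocaine intake. The labels give the food-trained group food training alone, so cocaine intake cannot be told apart from the added sessions and days. Pitx3 was the member that differed most: its mean was 2.60 ± 1.47 CPM (SD, n = 3) at maintenance against 28.8 ± 23.1 CPM (n = 4), 11.1-fold lower, but the difference did not pass over all genes. The other 7 members differed by less than 2 log2 units, and Nr4a2 and Foxa1 by under 0.1. By edgeR 0 of 8 members passed, where 0.131% of 19060 genes were called (0.126% lower and 0.00525% higher); 1 member, Pitx3, had an unadjusted p under 0.05, as did 11.6% of all genes. DESeq2's test called 1 member, also Pitx3, and 4.69% of genes, and limma-voom called 0 members and 0.0472% of genes. All 8 estimates were negative, with a median log2 fold change of -0.73 beside -0.01 over all genes, although Nr4a2, Foxa1, Lmx1a, Lmx1b and Otx2 turned positive under at least one alternative.

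Pitx3 was at 0.929, 3.17 and 3.70 CPM in maintenance replicates 1 to 3, from 45, 105 and 152 counts, against 22.8, 15.6, 62.9 and 13.9 CPM after food training. The highest maintenance library was well below the lowest food-trained one, and above the 2.26 CPM of the highest non-dopaminergic library. Its log2 fold change was -3.47 (SE 0.81, unadjusted p = 0.000817, edgeR adjusted p = 0.13). En1 was the other member without overlap, at 73.9, 73.4 and 81.0 CPM against a food-trained minimum of 82.7 CPM. Ranges with maintenance lower and no overlap were found for these 2 of 8 members, beside 4.21% of all genes (4.28% with maintenance higher). The En1 log2 fold change was -0.63 (SE 0.37, edgeR adjusted p = 0.568), and it was -0.15 without food-trained replicate 3.

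An oligodendrocyte marker passed in the same contrast: Olig1 was at 0.0688 ± 0.119 CPM (SD, n = 3) at maintenance, 32.9 ± 16.6 CPM (n = 4) after food training (edgeR adjusted p = 0.0103) and 38.2 ± 10.8 CPM (n = 4) at abstinence (edgeR adjusted p = 0.00955 against maintenance). It was 1 of the 9 markers of that list to pass in each of these contrasts; their median log2 difference at maintenance was -0.84, with 7 of 9 lower, among them Mbp (264 ± 84.4 beside 1058 ± 255 CPM, edgeR adjusted p = 0.0999). Olig1 is also in the list of 5 oligodendrocyte precursor markers, of which 3 had a higher estimate at maintenance, with a median log2 difference of 1.53. The part of these markers in the Pitx3 difference was not tested.

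Whether the Pitx3 difference passed depended on the test. With DESeq2's test it was -3.50 (adjusted p = 8.57e-05), and among genes with at least 10 counts in every library it was -3.49 (edgeR adjusted p = 0.0363). With limma-voom and quality weights it was -2.95 (adjusted p = 0.499). Leaving out any one of the 11 libraries gave -3.82 to -2.74, with edgeR adjusted p from 0.126 to 0.312.

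GC content moved with this comparison. Regressed on the GC content of transcripts, log2 CPM had the lowest slopes in the 3 maintenance libraries (-0.0372, -0.0224 and -0.0376 log2 units per percent GC), while the other 8 dopaminergic libraries had -0.0167 to 0.0204. Non-dopaminergic replicate 2, the library with the lowest Pitx3 of its group, had a slope of -0.0248, and the other 3 had 0.0209 to 0.0322. With a GC offset for each library the Pitx3 difference was -2.84 (edgeR adjusted p = 0.298). In a fit of all 15 libraries with a term for the 4 with the lowest slopes it was -0.67 (edgeR adjusted p = 1). That term holds every maintenance library, so its estimate rests on non-dopaminergic replicate 2, and the stage and the slope cannot be told apart among dopaminergic libraries. Elovl3, whose exon overlaps Pitx3, was at 0, 12.5 and 19.7 CPM at maintenance and at 0 to 3.39 CPM after food training. At abstinence, where Pitx3 had a mean of 20.3 CPM, Elovl3 was at 4.10 to 13.3 CPM. The part of the overlapping reads in the Pitx3 counts was not tested.

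**Figure D4:**
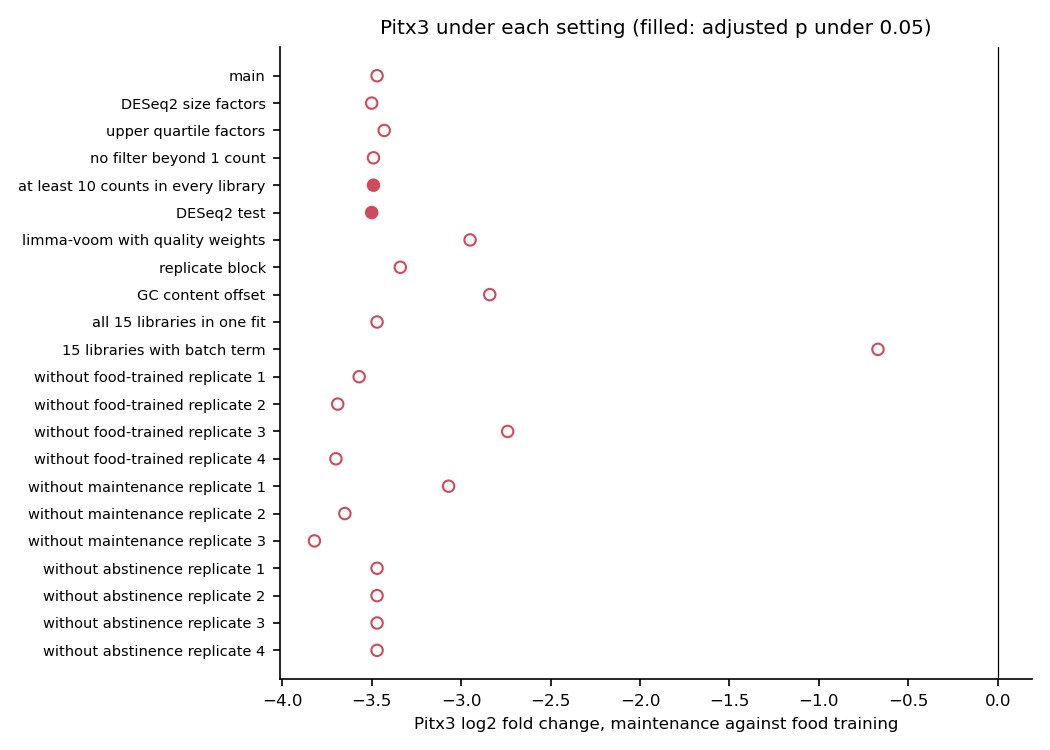
Log2 fold change of Pitx3, maintenance against food training, under the main settings and each alternative, with filled points where the adjusted p was under 0.05. Every estimate is below 0; the filled ones are DESeq2's test and the filter of 10 counts in every library, and the 15-library fit with a term for 4 libraries (batch term) is nearest 0.

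**Figure D5:**
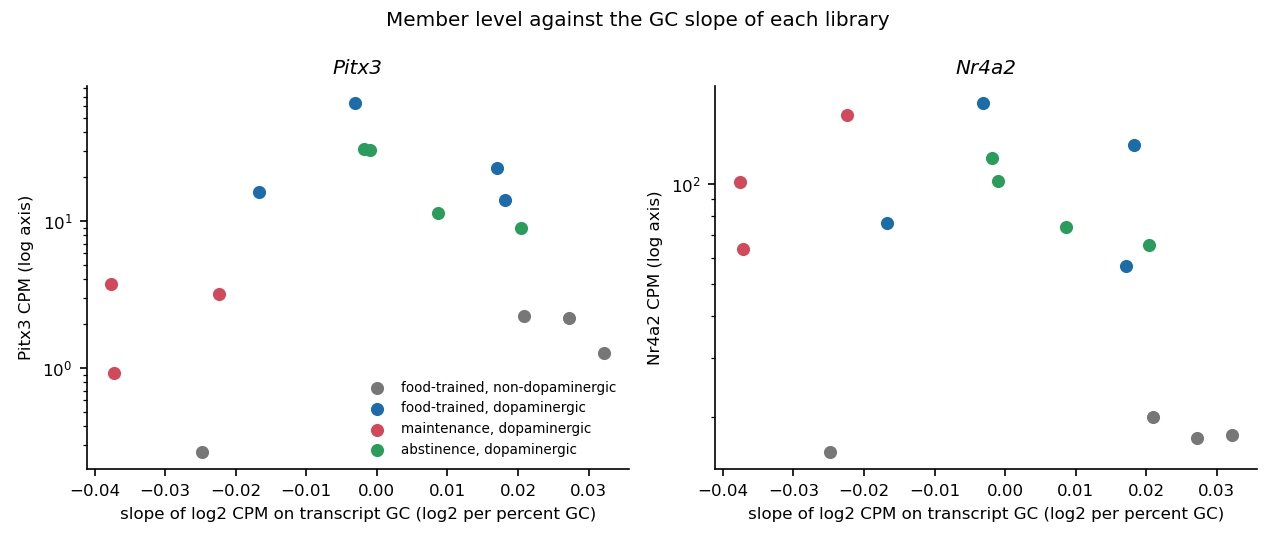
CPM of Pitx3 (left) and Nr4a2 (right), on log axes, against each library's GC slope (log2 units per percent GC), for the 15 libraries. The 3 maintenance libraries lie at the left in both panels, low for Pitx3 and within the range of the other dopaminergic libraries for Nr4a2.

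Nr4a2 was at 63.5, 161 and 101 CPM at maintenance, within the food-trained range of 56.7 to 174 CPM, with a log2 difference of -0.02 (SE 0.41). Foxa1 was at 11.5, 5.13 and 7.39 CPM, also inside the food-trained range, with a log2 difference of -0.05 (SE 0.78). Foxa2 varied most, at 27.0, 8.78 and 0.535 CPM, the last from 22 counts, a 50.4-fold spread among 3 libraries of a group. Its log2 difference was -0.84 (SE 0.90), and -2.08 by limma-voom. When maintenance replicate 1 was left out it was -2.22, when replicate 3 was left out -0.28, and -0.44 if food-trained replicate 3 was omitted. Lmx1b was at 4.50, 5.31 and 7.51 CPM, all within its wide food-trained range, with a log2 difference of -1.78 (SE 1.40) that was -0.92 without food-trained replicate 3 and -0.33 with the replicate block. Lmx1a (15.4, 8.84 and 8.20 CPM) differed by -0.38 (SE 0.62) and Otx2 (9.35, 13.7 and 1.99 CPM) by -0.93 (SE 1.02). The Otx2 difference was 0.10 without food-trained replicate 2 and -1.50 without maintenance replicate 2. Adjusted p values of these 6 members ran from 0.752 to 1 by edgeR, and the standard errors leave room for differences of several fold in Lmx1b, Otx2 and Foxa2.

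Abstinence was compared with food training to ask whether differences remained after cocaine was withdrawn. Earlier sessions and the 21 days of abstinence also separate these groups, so cocaine cannot be told apart from them here either. Again 0 of 8 members passed by edgeR, in a comparison where 0% of 19060 genes were called, although 819 genes (4.3%) had an unadjusted p under 0.05 and DESeq2's test called 125 (0.656%). Of the members 1, Lmx1b, had an unadjusted p under 0.05, and DESeq2's test and limma-voom called 0 of them (limma-voom called 0% of genes). Ranges overlapped for all 8, beside 2.37% of genes without overlap and higher at abstinence and 0.955% lower. The median log2 fold change was -0.39 for the members and 0.04 for all genes. All 7 dopamine neuron markers had a lower estimate (median -0.20) and all 6 GABA neuron markers a higher one (median 0.71). Glutamate neuron markers were higher for 2 of 4 tested and serotonin neuron markers for 2 of 5, and 0 passed in these lists. The part of these markers in the members' levels was not tested.

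Lmx1b was at 0, 1.13, 6.79 and 2.43 CPM in abstinence replicates 1 to 4 and at 2.46 to 46.5 CPM after food training. Replicate 1 had 0 counts, which allows up to 0.0667 CPM (3 counts over its TMM-scaled library size, for counting error only), although each of the other members was counted there. The log2 fold change was -2.93 (SE 1.32, unadjusted p = 0.0432, edgeR adjusted p = 1), and it was -2.08 without food-trained replicate 3 and -4.06 without abstinence replicate 3. Pitx3 was at 30.8, 11.3, 8.88 and 30.2 CPM, with 2 of 4 libraries below the food-trained minimum of 13.9 CPM, with a log2 difference of -0.50 (SE 0.65). The Pitx3 difference was 0.22 without food-trained replicate 3 and -0.77 without abstinence replicate 1. Foxa1 was the member with a positive estimate, 0.92 (SE 0.72), from 19.2, 12.4, 4.79 and 26.4 CPM.

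En1 was at 101, 60.6, 53.3 and 93.4 CPM at abstinence, a log2 difference of -0.61 (SE 0.34) that was -0.13 without food-trained replicate 3. Nr4a2 was at 119, 74.1, 65.6 and 102 CPM, with a log2 difference of -0.28 (SE 0.38). Otx2, at 4.33, 1.21, 4.47 and 10.5 CPM, differed by -1.62 (SE 0.95), and by -0.59 without food-trained replicate 2. Foxa2 (30.5, 14.5, 12.3 and 16.9 CPM) and Lmx1a (16.8, 8.96, 8.90 and 13.7 CPM) each differed by -0.22, with SE 0.82 and 0.57. All of these had an edgeR adjusted p of 1.

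In the contrast of abstinence with maintenance, 0 of 8 members passed by edgeR, beside 0.178% of all genes (0.168% higher and 0.0105% lower at abstinence), and 1 member, Pitx3, had an unadjusted p under 0.05, as did 9.92% of all genes. DESeq2's test called 1 member, Pitx3, and 3.84% of genes, and limma-voom called 0 members and 0.157% of genes. Pitx3 was higher in all 4 abstinence libraries (8.88 to 30.8 CPM) than in all 3 maintenance libraries (0.929 to 3.70 CPM), the one member without overlap, beside 7.56% of genes (4.58% with abstinence lower). Its log2 fold change was 2.97 (SE 0.79, edgeR adjusted p = 0.21), with 2.94 by DESeq2's test (adjusted p = 0.00264), 2.31 with a GC offset (edgeR adjusted p = 0.474) and 0.16 with the term for the 4 libraries of lowest slope (edgeR adjusted p = 1). The maintenance libraries serve both this contrast and that with food training, and the food-trained libraries serve both cocaine groups, so these comparisons are not independent.

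Foxa1 differed by 0.97 (SE 0.79), Foxa2 by 0.61 (SE 0.90), Lmx1b by -1.16 (SE 1.31) and Otx2 by -0.70 (SE 0.99) between abstinence and maintenance. Leaving out one library at a time gave 0.05 to 1.99 for Foxa2 (without maintenance replicates 3 and 1), -2.28 to -0.74 for Lmx1b (without abstinence replicates 3 and 1) and -1.32 to -0.14 for Otx2 (without abstinence replicate 4 and maintenance replicate 2). Nr4a2 (-0.26, SE 0.40), Lmx1a (0.16, SE 0.61) and En1 (0.02, SE 0.37) differed by less than their SE. Tested over the 3 stages at once, 0 of 8 members passed by edgeR (0.0839% of genes); Pitx3 had the lowest adjusted p, 0.31, was the one member with an unadjusted p under 0.05 (7.85% of genes) and had an adjusted p of 0.0133 by DESeq2's likelihood ratio test, which called 1.79% of genes.

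Genes known to depend on the members were followed next: enzymes, transporters, receptors and other genes that lose expression when Nr4a2, Pitx3, En1 or their partners are removed. Against non-dopaminergic nuclei 13 of 15 passed higher and 0 lower, beside 3.63% of all genes higher and 9.17% lower, and the median log2 fold change was 3.14, beside -0.21 over all genes. With the replicate block 12 of them passed higher. Among them were Slc6a3 (5.02, SE 0.34), Th, the rate-limiting enzyme of dopamine synthesis (4.57, SE 0.33), the neurotrophic factor receptor Ret (4.30, SE 0.30), the vesicular transporter Slc18a2 (4.04, SE 0.33) and Dlk1, a Notch-family ligand known as a Nr4a2 and Pitx3 target (3.09, SE 0.24). The edgeR adjusted p values of these 5 genes ran from 0.000624 to 0.000733. Bdnf (0.72, SE 0.36) and the cell cycle inhibitor Cdkn1c (-4.19, SE 1.68) did not pass. The sort itself favours nuclei with high Slc6a3, and Th, Ddc, Slc18a2, Drd2 and Ret are also markers of the sorted neurons. Their higher level is therefore a check of the sort and no separate evidence about the members. The list was chosen with earlier results of these data known.

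Between stages 0 of these 15 genes passed in any of the 3 contrasts by edgeR. At maintenance 8 had a higher and 7 a lower estimate than after food training, with a median log2 difference of 0.24. In the maintenance libraries, where Pitx3 counts were low, Th had a mean of 885 ± 394 CPM (SD, n = 3), beside 887 ± 361 CPM (n = 4) in food-trained ones. Slc6a3 had 2562 ± 560.3 beside 3009.7 ± 1031 CPM, and both means lay within the food-trained SD. Others lay further off in either direction without passing: Dlk1 was at 2046 ± 361 beside 1268 ± 331 CPM (log2 difference 0.69, SE 0.29, edgeR adjusted p = 0.403) and Ret at 976 ± 104 beside 1469.8 ± 473 CPM (-0.59, SE 0.28, edgeR adjusted p = 0.445). Gch1, which makes the cofactor of Th, was at 17.6 ± 9.06 beside 36.5 ± 21.4 CPM (-1.05, SE 0.57, edgeR adjusted p = 0.511). At abstinence Th was at 546 ± 57.7 CPM (n = 4), a log2 difference of -0.70 from food training (SE 0.32, unadjusted p = 0.0495, edgeR adjusted p = 1). There 3 of the 15 genes had a higher and 12 a lower estimate than after food training, with a median log2 difference of -0.23.

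Partner and related transcription factors were less uniform. Of 19 listed, 17 were tested; 3 were higher in dopaminergic nuclei, 2 lower and 12 did not pass, beside 3.63% of all genes higher and 9.17% lower, so the share lower was near that of all genes. The median log2 fold change was -0.01, beside -0.21 over all genes. With the replicate block 2 were higher and 1 lower. Among the higher ones were the chromatin organizer Satb1 (2.03, SE 0.36, edgeR adjusted p = 0.0067) and the homeodomain cofactor Pbx3 (1.87, SE 0.39, edgeR adjusted p = 0.0123). With the block Satb1 passed at 1.93 (edgeR adjusted p = 0.011) and Pbx3, at 1.76, did not (edgeR adjusted p = 0.0591). Nr4a1, the activity-induced relative of Nr4a2, was lower in dopaminergic nuclei (-2.34, SE 0.63, edgeR adjusted p = 0.0417), at 4.34 ± 3.19 against 21.5 ± 6.74 CPM (SD, n = 4 each), but did not pass with the block (-2.58, edgeR adjusted p = 0.0921). Sfpq, an RNA-binding corepressor partner of Nr4a2, was also lower (-1.08, SE 0.27, edgeR adjusted p = 0.0285), and was -1.15 with the block (edgeR adjusted p = 0.0497). Of the 17, 0 passed between stages in any of the 3 contrasts.

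Of 13 early floor plate and progenitor genes, 8 were tested against non-dopaminergic nuclei, 1 passed lower and 0 higher, a share near the 9.17% of all genes called lower, and with the replicate block 0 passed. That gene was Msx1, a homeodomain factor of the dopaminergic progenitor, with 0 counts in all 4 dopaminergic libraries and 2.73 ± 1.2 CPM (SD, n = 4) in the others (edgeR adjusted p = 0.0067, and 0.152 with the block). Shh, the floor plate morphogen, was at 36.6 ± 19.6 CPM against 11 ± 4.96 CPM and did not pass (log2 fold change 1.70, SE 0.52, edgeR adjusted p = 0.0651). In the dopaminergic libraries 8 genes of this list were tested, without Msx1, and 0 passed between stages in any contrast.

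Over the 11 dopaminergic libraries, which share depth and stage differences, the 28 pairwise correlations of log2 CPM ran from -0.68 to 0.69 with a median of 0.14, and 0 passed after Benjamini-Hochberg adjustment of Pearson's r, while 2 passed by Spearman's rho. The closest pair by rank was Lmx1a and Foxa2, with r = 0.67 (permutation p = 0.0106, adjusted over the 28 pairs p = 0.153) and rho = 0.92 (permutation p = 0.00018, adjusted p = 0.00504). Without the 2 libraries farthest from the Lmx1a median, r was 0.88. The other was En1 and Pitx3, with r = 0.59 (permutation p = 0.0603, adjusted p = 0.338) and rho = 0.85 (permutation p = 0.00195, adjusted p = 0.0273), and r was 0.54 without the 2 libraries farthest from the En1 median. Lmx1b and Foxa1 ran in opposite directions, with r = -0.68 (permutation p = 0.0262, adjusted p = 0.209) and rho = -0.78 (permutation p = 0.00645, adjusted p = 0.0602), and r was -0.48 without the 2 farthest libraries. For the paralogs, r was 0.06 for Lmx1a with Lmx1b (permutation p = 0.874; rho 0.15) and 0.04 for Foxa1 with Foxa2 (permutation p = 0.889; rho 0.16).

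Among 15118 genes with enough counts, those whose log2 CPM pattern over the same 11 libraries was most like each member are given as a description. Pitx3 was most like Phf1 (Pearson r 0.94), Srrm2 (0.94) and Snrnp70 (0.93), a chromatin reader gene and a pair of splicing genes, and Nr4a2 was most like Rabgap1l (0.94). Foxa2 was closest to Vps37b, Mospd2 and Ddx49 (0.95 each), Lmx1b to the calcium channel gene Cacna1b (0.93), Foxa1 to Gps1 (0.91), En1 to Rpap3 (0.89), Otx2 to Arhgap18 (0.89) and Lmx1a to Zbtb12 (0.87). Each value is among the largest of 15118 over only 11 libraries, where high values also arise by chance, and none was tested.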

How the data were processed

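Nuclear RNA of 15 sorted-nuclei samples was sequenced from libraries made with a low-input cDNA kit, per the labels' protocols. The authors deposited whole-number counts per gene; 0 columns belonged to no sample, and a second deposited table held the same counts, with 0 cells different, for 10 of the 11 dopaminergic libraries, without food-trained replicate 3, and was not used. Per the submitters' processing notes, Trim Galore 0.6.7, cutadapt 1.18, STAR 2.7.10a, StringTie 2.1.5 and DESeq2 1.38.3 were used with mm10/GRCm38; their roles, the annotation and strand use are not given in the sources used here. Reads carry no molecular identifiers, so limits from counts cover counting error only. Amplification and GC preference of such libraries can change the level of GC-rich transcripts.

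Groups came from the sample titles. Counts were fitted in R 4.3.3 with edgeR 4.0.16 (filterByExpr, TMM factors, quasi-likelihood F-test, two-sided, Benjamini-Hochberg adjusted p under 0.05 over all genes tested): 8 food-trained libraries for the 2 populations, and contrasts in a fit of the 11 dopaminergic libraries for the stages. SE is the log2 fold change divided by the root of F. Alternatives used DESeq2 1.42.0 and limma 3.58.1; permutation tests ran in Python 3.11.15. The scripts were tested on simulated counts. Replicates are pools of mice, and nothing further says how they were drawn.

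Transcript length and GC content came from GENCODE release 21 (26763 symbols matched directly, 567 by an older symbol, 8646 not), and GC slopes from 8354 genes whose mean log2 CPM exceeded 4. The log2 CPM used for correlations had a prior count of 2. Promoters and coordinates are RefSeq's, GRCm38.p6, and all 8 members matched.

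Same-numbered food-trained fractions were treated as pairs in the replicate block, but the labels do not say that they came from the same pool. Deviations of these same-numbered libraries correlated at 0.116, 0.127, 0.262 and 0.243, each the best match. Between stages, correlations of same-numbered libraries ran from -0.351 to 0.11. The same number was still the best match for food-trained replicate 1 with maintenance (0.11) and food-trained replicate 2 with abstinence (0.065). All 8 members are named in every comparison. Genes of the partner, dependent and progenitor lists are named where they passed a comparison, where Slc6a3 or Th checks the sort, or as examples; Bdnf, Cdkn1c and Shh were named after their values were seen. Not every listed gene that passed is named, and the values of 1 are not reported here. For each member up to 3 genes of most similar pattern were sought. The members and lists were chosen with earlier results of these data known.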

Additional observations from a re-analysis of the deposited data

Results flagged for a closer look

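En1 in food-trained dopaminergic replicate 3 was at 218 CPM, while the other 3 libraries of the group lay between 82.7 and 87.2 CPM. Its gap to the next library was 0.966 of the group's range, past the limit of Dixon's test for 4 samples. This was 1 of 24 groups of member values tested, and chance alone marks about 1 in 20. The same library had the lowest total of the 15 (25813697 counts).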

How the results depend on the processing

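Of 937 alternative values, 885 were labelled as the same. Of these, 788 were values of single members that kept their side of the threshold and, where there was one, their direction. The other 97 were counts of passing members equal to or near the main count (3 or 5 beside 4 was taken as near). Some values could hardly move: without an abstinence library, Pitx3 at maintenance against food training stayed at -3.47. Against non-dopaminergic nuclei 3 to 5 of 8 members passed under every setting, and En1, Nr4a2 and Pitx3 passed in each of the 17 alternatives; Foxa2 was lost with the replicate block (3.18, adjusted p = 0.0595), which changed no other call on a member. For maintenance against food training 1 member (Pitx3) passed with at least 10 counts in every library and 1 with DESeq2's test. DESeq2's test also called 1 (Pitx3) for abstinence against maintenance and 1 for any stage difference. The cause was not tested. Leaving out one library at a time gave 4 to 5 members passing for the populations and 0 to 0 for each stage comparison. Over all genes, the population comparison had 2534 calls and 775 with the block, 3883 by DESeq2's test, 4266 by limma-voom and 1643 with 10 counts in every library. Maintenance against food training had 25, with 894 by DESeq2's test, 109 with that filter, 9 by limma-voom and 0 with the block or the 4-library term. Abstinence against maintenance had 34, with 732 by DESeq2's test, 69 with that filter, 2 with the block, 1 with that term and 22 with upper quartile factors; abstinence against food training had 0, with 125 by DESeq2's test. Any stage difference had 16, with 341 by DESeq2's test, 41 with that filter, 9 with all 15 libraries, 5 with a GC offset and 0 with the block or that term. Stages are not paired; with the replicate block 0 members passed between them, as without it, and Pitx3 was -3.34 at maintenance.

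Signs that turned were all of differences that had not passed. For maintenance against food training, Nr4a2 was 0.01 with upper quartile factors, 0.11 with limma-voom, 0.09 with the replicate block and 0.20 with the term for the 4 libraries of lowest GC slope; Foxa1 was 0.45 with the block, 0.17 with a GC offset and 1.11 with that term, which also turned Lmx1a (0.88) and Lmx1b (0.43). For abstinence against food training, Foxa2 was 0.14 with limma-voom. For abstinence against maintenance, En1 was -0.01 with DESeq2 size factors and with DESeq2's test, -0.05 with upper quartile factors, -0.00 with 10 counts in every library, -0.14 with limma-voom and with the 4-library term and -0.30 with a GC offset; that term gave -1.10 for Lmx1a, -0.18 for Foxa1 and 0.07 for Otx2. Without one library at a time, at maintenance against food training Foxa1 ran from -0.40 to 0.23, Nr4a2 from -0.43 to 0.30 and Otx2 from -1.50 to 0.10. At abstinence against food training Lmx1a ran from -0.45 to 0.06, Foxa2 from -0.58 to 0.17, Nr4a2 from -0.49 to 0.04 and Pitx3 from -0.77 to 0.22, the last value of each without food-trained replicate 3. At abstinence against maintenance En1 ran from -0.14 to 0.16, Nr4a2 from -0.53 to 0.15 and Lmx1a from -0.04 to 0.51. Lmx1b has no stage value with 10 counts in every library, since it was not kept.

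Depth was at least 25813697 counts in every library, but Foxa1, Foxa2, Lmx1b, Otx2 and Pitx3 had under 100 counts in some dopaminergic libraries, and groups of 3 or 4 left standard errors of up to 1.40 on the log2 scale between stages.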
